A study of Mus musculus with 2 samples.

Results

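The blood cell miRNAs described here are 9 hairpin genes chosen by symbol, out of 1973 miRNA genes in the tables. Mir451a, Mir144 and Mir486 make up an erythroid set, and Mir223, Mir155, Mir146, Mir146b, Mir150 and Mir142b a leukocyte set. Reads of Mir142, the partner of Mir142b on the other strand, were taken from the opposite-strand count of Mir142b and are described with the leukocyte set. Levels were measured by microRNA sequencing (inserts below 30 nt, total RNA) in the facial prominences, the paired swellings that form the face and jaws, of B6NCrl mouse embryos at embryonic day 10.5. The only group has 2 biological replicates. Replicate 1 pooled 69 embryos and replicate 2 pooled 51, males and females together, called healthy in the labels, which name no genetic change or treatment. There is no second condition, so genes were compared with each other and the pools with each other.

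Reads counted on the strand of a miRNA gene came to 2853511 and 3517226. Levels are gene counts scaled to that total (CPM), and means are given with the SD of both libraries (n = 2). Intervals are exact 95% intervals for counting error alone. PCR copies of a molecule are counted as separate reads, so the intervals may be too narrow even for that error. Markers of the labelled tissue were present: all 4 mesenchymal genes, all 7 epithelial genes and Mir126a, an endothelial miRNA, had at least 10 counts in each library. Of 8 matched muscle genes 4 did, and of 4 liver genes 3 did. In tissue pools of this kind, fewer blood cells and less RNA per blood cell cannot be told apart.

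At this stage the embryo's circulation carries primitive red cells made in the yolk sac, and macrophages of yolk sac origin enter the tissues. Mir144 and Mir451a are made from a single primary transcript that is strongly induced in red cell precursors by the factor GATA1. Mir451a is known for a maturation route that bypasses Dicer and depends on slicing by Ago2. Mir486 is abundant in red cells and also in muscle. Among the leukocyte genes, Mir223 is a miRNA of neutrophils and other myeloid cells, Mir142 is found in nearly all blood cell lineages, Mir155 and Mir146 are induced in activated immune cells, and Mir150 marks mature lymphocytes.

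The mature sequences below show how the members differ, and which could be taken for one another. They come from RefSeq (GRCm38.p6, the same build as mm10), and capitals mark the seed, bases 2 to 8 from the 5′ end, by which a miRNA recognises its targets.
miR-451a: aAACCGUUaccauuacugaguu
miR-144-3p: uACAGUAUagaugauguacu
miR-144-5p: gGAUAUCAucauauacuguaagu
miR-142a-3p: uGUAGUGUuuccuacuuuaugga
miR-142a-5p: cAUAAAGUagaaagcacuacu
miR-142b: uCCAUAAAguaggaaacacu
miR-223-3p: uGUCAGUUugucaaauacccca
miR-155-5p: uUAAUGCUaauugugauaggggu
miR-146a-5p: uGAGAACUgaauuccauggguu
miR-146b-5p: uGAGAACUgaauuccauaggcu
Each of these sequences occurred in the RNA of 1 of the 2202 miRNA genes of GENCODE M21. Reads from either arm of a hairpin enter 1 count, so the arm that was read is not known. Of the 10 genes, Mir142 included, 9 had a mature sequence and 8 a hairpin in the table of sequences. Mir486 had neither.

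Only the pair from Mir146 and Mir146b shared a seed, GAGAACU. Counted from the 5′ end, miR-146a-5p and miR-146b-5p were identical at 20 of 22 positions and differed by G18A and U21C. Seeds of the other printed sequences were found in 1 gene each among 1738 mature sequences. Mir451a stood apart in its shape. In this hairpin (plus strand, chr11:78073170-78073241) capitals mark the mature miRNA.
Mir451a hairpin: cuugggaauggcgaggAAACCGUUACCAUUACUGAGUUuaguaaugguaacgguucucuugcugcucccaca
The mature part covered positions 17 to 38 of 72, and the structure predicted by RNAfold placed its last 4 bases in the loop (positions 35 to 38). Of 14 mature sequences folded within their hairpins, it was the 1 that reached into the loop.

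Blood cell miRNAs were a small part of the profile. The 9 genes took 0.0881% of the gene-strand total in replicate 1 and 0.0659% in replicate 2. Reads of Mir142 lie outside that total, and its CPM is its opposite-strand count scaled to the same total. Mir335, the most abundant gene of all, had 153896 ± 4719 CPM. Mir126a was 20.01 times the summed level of the 9 genes and Mir142 in replicate 1 and 25.4 times in replicate 2. Among the 9 genes, 7 had at least 10 counts in each library, against 19.1% of all 1973 genes. By mean level the order was Mir142, Mir451a, Mir223, Mir155, Mir144, Mir146, Mir486, Mir150 and Mir146b, and Mir142b had no read on its own strand.

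**Figure D1:**
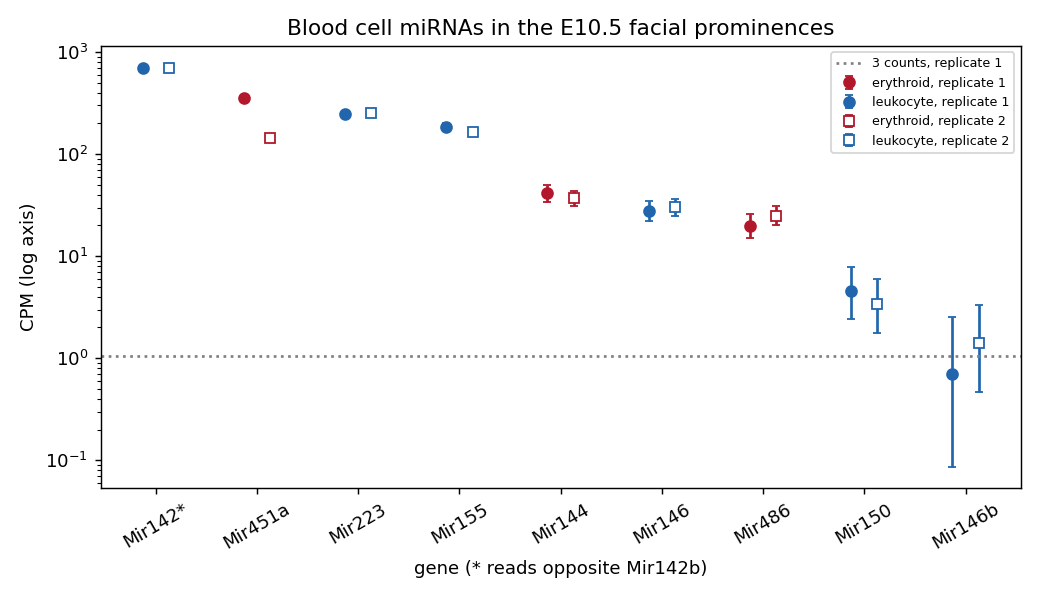
CPM of each blood cell miRNA (log axis) in replicate 1 (filled circles) and replicate 2 (open squares), with exact Poisson 95% intervals, and red for the erythroid and blue for the leukocyte set; Mir142 is the opposite-strand count of Mir142b, Mir142b itself is left out because it had no read, and the dotted line marks 3 counts in replicate 1. Mir142, at 700 and 696 CPM, lies highest, and Mir451a is the gene whose symbols lie far apart, at 359 and 143 CPM.

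Mir451a led the erythroid set (ENSMUSG00000070065.1, mm10 chromosome 11, 78073170 to 78073241, plus strand, in no host gene). It had 1023 counts in replicate 1 and 503 in replicate 2, or 359 CPM (337 to 381) and 143 CPM (131 to 156), with a mean of 251 ± 152 CPM. The replicates did not overlap, and the second, although deeper, held fewer reads. The level in replicate 2 was 0.399 times that in replicate 1 (0.358 to 0.444).

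Mir144 lies 99 bases before Mir451a on the same strand (ENSMUSG00000065401.1, 78073005 to 78073070). Mir144 had 118 and 130 counts, or 41.4 CPM (34.2 to 49.5) and 37.0 CPM (30.9 to 43.9), with a mean of 39.2 ± 3.11 CPM. These intervals overlapped, and the ratio of replicate 2 to replicate 1 was 0.894 (0.691 to 1.16). Reads of Mir451a were 8.67 times those of Mir144 in replicate 1 and 3.87 times in replicate 2. As a share of the reads of both genes, Mir451a took 89.7% (Clopper-Pearson interval 87.7% to 91.4%) and 79.5% (76.1% to 82.5%). These intervals did not overlap, and they cover counting error between these libraries only.

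Mir486 lies in an intron of Ank1, the gene of the red cell membrane protein ankyrin (ENSMUSG00000070084.3, chromosome 8, 23142555 to 23142682, plus strand). It had 57 and 88 counts, or 19.98 CPM (15.1 to 25.9) and 25.0 CPM (20.1 to 30.8), with a mean of 22.5 ± 3.57 CPM. The counting intervals of the pools overlapped. Mir3107 (also known as mir-486b) is annotated on the other strand within it, and the RNAs of both genes share an identical stretch of 22 bases. A read of that stretch maps to more than one place, and such reads (27.6% and 25.9% of all reads in the libraries) are outside the gene counts, so the level of Mir486 is uncertain.

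Mir142 was the most abundant of the 10 genes. Its hairpin (chromosome 11, 87756864 to 87756927, plus strand, in an intron of Mir142hg) lies inside Mir142b (ENSMUSG00000065420.2, 87756841 to 87756955, minus strand). There were 1998 and 2448 reads opposite Mir142b, or 700 CPM (670 to 732) and 696 CPM (669 to 724), with a mean of 698 ± 2.96 CPM. The pools were nearly equal, with a ratio of 0.994 (0.937 to 1.06). Mir142b itself had 0 counts in both libraries. Its exact Poisson interval reaches 1.29 CPM (replicate 1) and 1.05 CPM (replicate 2). A level of 3 counts equals 1.05 CPM (replicate 1) or 0.853 CPM (replicate 2).

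Mir223, the myeloid miRNA, followed (ENSMUSG00000076066.1, chromosome X, 96242817 to 96242926, plus strand, in an exon of the non-coding gene F630028O10Rik). It had 699 and 891 counts, or 245 CPM (227 to 264) and 253 CPM (237 to 271), with a mean of 249 ± 5.91 CPM. The mean levels of Mir451a and Mir223 did not differ beyond the spread of Mir451a, which was above Mir223 in replicate 1 and below it in replicate 2. Mir155 (ENSMUSG00000065397.1, chromosome 16, 84714140 to 84714204, plus strand, in an exon of Mir155hg) had 524 and 583 counts. These were 184 CPM (168 to 200) and 166 CPM (153 to 180), with a mean of 175 ± 12.6 CPM. Mir155 was below Mir223 in both libraries, with counting intervals that did not overlap, and its interval overlapped that of Mir451a in replicate 2.

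The remaining leukocyte genes were low. Mir146 (also called Mir146a; ENSMUSG00000065601.1, chromosome 11, 43374397 to 43374461, minus strand, in no host gene), a miRNA that restrains innate immune signalling, had 79 and 107 counts. Its level was 27.7 CPM (21.9 to 34.5) and 30.4 CPM (24.9 to 36.8), with a mean of 29.1 ± 1.94 CPM. Intervals of Mir146 overlapped those of its neighbours in order, Mir144 and Mir486, in both libraries. Mir146b (ENSMUSG00000070127.2, chromosome 19, 46342762 to 46342870, plus strand, in an intron of Mfsd13a) had 2 and 5 counts, a level of 0.70 and 1.42 CPM, at the limit of this depth. The ratio of these levels was 2.03, with a counting interval of 0.332 to 21.3. As the sequences above show, the genes differ late in the mature miRNA, and their RNAs share a stretch of 21 bases. A read that lies within that stretch is not assigned to either. The stretch begins before the mature miRNA and ends before position 18, so a read that reaches G18A is not within it.

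Mir150 (ENSMUSG00000065495.1, chromosome 7, 45121757 to 45121821, plus strand, in no host gene) had 13 and 12 counts, or 4.56 CPM (2.43 to 7.79) and 3.41 CPM (1.76 to 5.96). The mean of Mir150, a gene of mature B and T cells, was 3.98 ± 0.809 CPM. It lay below Mir146 and Mir486 in both libraries without overlap of the intervals.

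The erythroid set had a sum of 420 CPM in replicate 1, against 205 CPM in replicate 2 (mean 312 ± 152 CPM). Mir451a supplied 85.4% and 69.8% of it, and without Mir451a the sum was 61.3 and 62.0 CPM. The leukocyte set summed to 462 and 454 CPM on the genes' own strand (458 ± 5.09 CPM), and to 1162 and 1150 CPM (1156 ± 8.05 CPM) with Mir142, which then took 60.3% and 60.5%. Counted leukocyte reads exceeded counted erythroid reads in both libraries by either count. Reads of the stretch that Mir486 shares with Mir3107 are outside the erythroid sum. That sum is therefore uncertain, and so is the order of the sets in replicate 1 on the genes' own strand (420 against 462 CPM). That order also rests on single genes such as Mir155, which held 184 CPM of the leukocyte sum in replicate 1. The ratio of erythroid to leukocyte level was 0.910 and 0.451 on the genes' own strand, and 0.361 and 0.178 with Mir142. Because Mir142 is found in nearly all blood cell lineages, the values with Mir142 may include reads from blood cells other than leukocytes. For the other members too, the cell type that supplied the reads was not tested. No test was run between the sets, since a permutation of 2 libraries cannot reach 0.05 and a test on reads would cover counting error only.

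**Figure D2:**
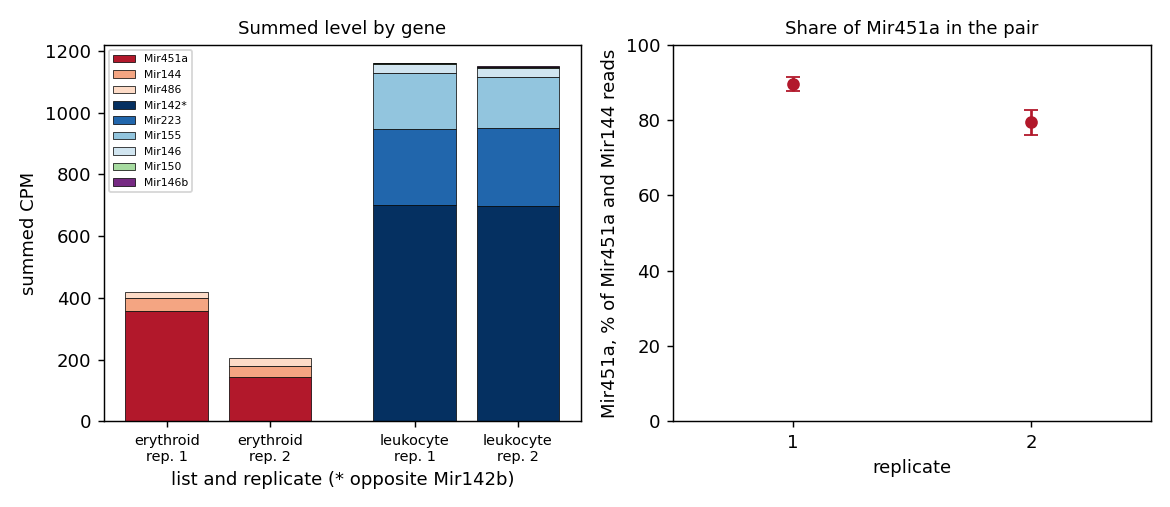
Left, summed CPM of the erythroid and leukocyte genes in each replicate, stacked by gene, with Mir142 as the opposite-strand count of Mir142b; right, reads of Mir451a as a percentage of the reads of Mir451a and Mir144, with exact Clopper-Pearson 95% intervals. The erythroid bars reach 420 and 205 CPM, apart mainly in Mir451a, and the leukocyte bars reach 1162 and 1150 CPM, and the share of Mir451a is 89.7% in replicate 1 and 79.5% in replicate 2.

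A miRNA is annotated opposite 3 members, and opposite-strand reads were counted at 2 of them, Mir142b and Mir486. At Mir451a, whose partner Mir451b occupies the same 72 bases on the minus strand, 0 reads were counted on that strand in either library. The exact interval of that share reaches 0.360% in replicate 1 and 0.731% in replicate 2, and 3 counts would be 0.293% and 0.596%. At Mir486, 8 of the reads in replicate 1 (12.3%, interval 5.47% to 22.8%) and 5 in replicate 2 (5.38%, 1.77% to 12.1%) lay on the strand of Mir3107. At Mir142b every read was on the strand of Mir142. Genes with at least 90% of reads on the opposite strand in both libraries were 2.59% of the 386 genes with at least 10 reads on either strand in each library. No opposite-strand read was seen at 6 of the 8 members in that group (Mir451a, Mir144, Mir223, Mir155, Mir146 and Mir150), against 87.6% of the 386 genes.

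**Figure D3:**
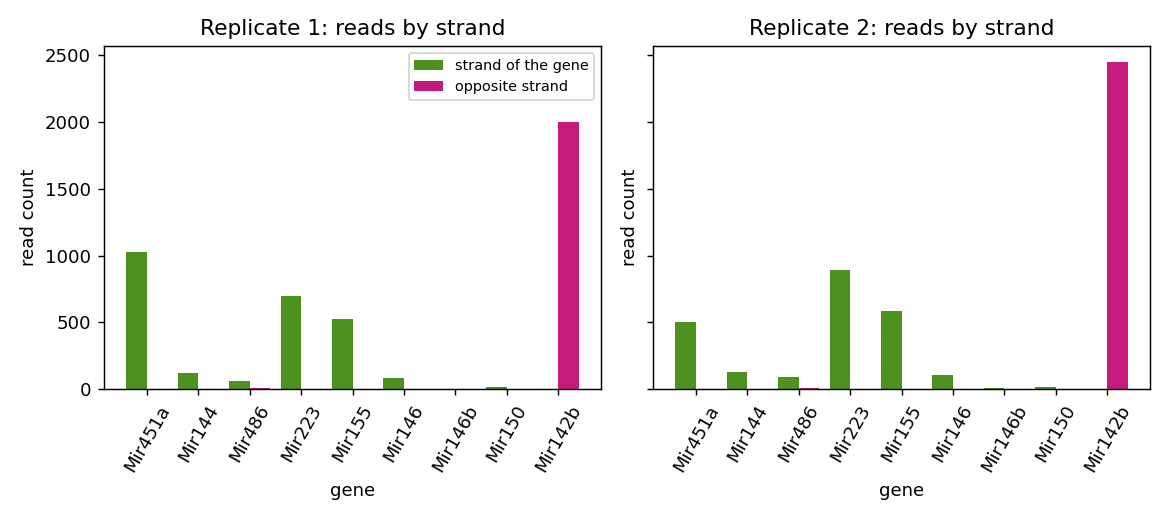
Read counts on the strand of each gene (green) and on the opposite strand (magenta) in replicate 1 (left) and replicate 2 (right). Opposite-strand reads are visible at Mir142b, with 1998 and 2448, and barely at Mir486, with 8 and 5, while the 7 other genes have none.

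Between the pools, Mir451a was the 1 tested member called different. A two-sided exact binomial test with Benjamini-Hochberg adjustment was run on the 449 genes with at least 10 counts in all. It asks whether these libraries differ beyond counting error and says nothing of a condition. It called 40.3% of all tested genes, 20.3% lower and 20% higher in replicate 2, and 1 of the 7 tested members, Mir451a, which was lower in replicate 2. Mir451a had a log2 ratio of -1.32 (replicate 2 over replicate 1, with 0.5 CPM added to each) and an exact binomial adjusted p of 3.04e-67. It passed the test and also differed by at least 2-fold, which together held for 4.01% of tested genes. Among the 320 genes that averaged 10 CPM or more, Mir451a had the 4th largest difference in either direction, and 1 gene had a lower ratio.

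The other 6 tested members did not pass. Their log2 ratios were 0.32 for Mir486, 0.13 for Mir146, 0.05 for Mir223, -0.15 for Mir155, -0.16 for Mir144 and -0.37 for Mir150. Counting intervals of the ratio of replicate 2 to replicate 1 were 0.887 to 1.78 for Mir486 and 0.312 to 1.78 for Mir150. Differences within these intervals could have been missed. Among the 4 tested leukocyte genes 0 passed, and the smallest unadjusted exact binomial p was 0.0906, for Mir155. Fisher's exact test in place of the binomial test also called 0 of them. Mir142 was tested in the counts of both strands together, where its adjusted exact binomial p was 0.918 and 40.3% of 462 genes were called. The median log2 ratio of all tested genes was 0.01.

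Some technical and tissue values moved beside Mir451a, and their part in its difference was not tested. Replicate 1 pooled more embryos, 21.6% of its reads were unmapped against 24.1% in replicate 2, and Mir126a stood at 31642 CPM, against 34369 CPM in replicate 2. The summed epithelial list was 28691 CPM (replicate 1), against 23965 CPM in replicate 2. By the exact binomial test 6 of its 7 genes were lower in replicate 2, with a median log2 ratio of -0.27. In the mesenchymal list 2 of 4 genes were lower, among them Mir199b with a log2 ratio of -0.46. Over all tested genes 20.3% were lower in replicate 2 by this test, which at high counts also passes small differences. The other erythroid genes, Mir144 and Mir486, did not pass the test. Of the genes that averaged 100 CPM or more, the 3 with the ratio nearest to that of Mir451a were Mir7b (-1.37), Mirlet7i (-1.17) and Mir98 (-0.76). This likeness, the difference of log2 ratios, rests on 2 libraries.

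**Figure D4:**
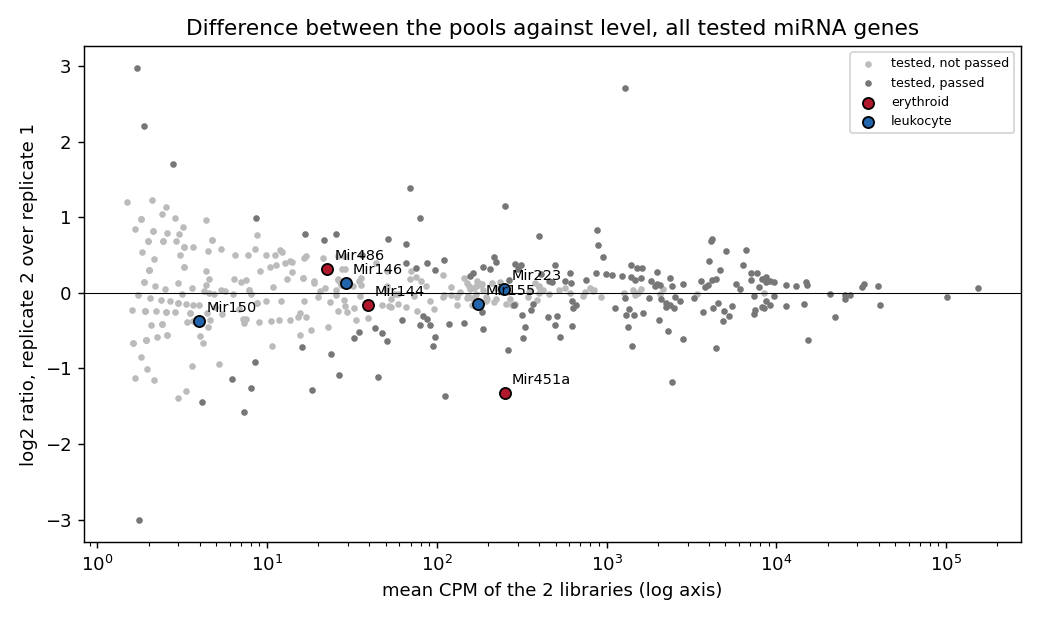
Log2 ratio of replicate 2 over replicate 1 against mean CPM (log axis) for the 449 tested miRNA genes, dark grey where the exact binomial test was passed and light grey where it was not, with tested erythroid members in red and leukocyte members in blue. Mir451a lies at -1.32, apart from the 6 other members, which lie between -0.37 and 0.32.

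Further miRNAs studied in blood cells, which other tissues express too, reached far higher sums than the members, although single genes of these lists lay as low as the members. Of the 1894 genes in the tables with a sequence, 48.7% shared a stretch of 20 bases with another miRNA gene. Reads within such a stretch can be outside the counts. Which genes of these lists have one is not given here, so their levels and order are those of counted reads only. A list from red cell development had all 8 genes detected and summed to 9518 ± 65.0 CPM. Its highest genes were those of the growth-restraining Mir15 and Mir16 clusters, Mir15a with 3938 ± 212 CPM, Mir16-1 with 2248 ± 207 CPM, Mir15b with 1836 ± 145 CPM and Mir16-2 with 499 ± 105 CPM, followed by Mir210, a miRNA induced by low oxygen, with 476 ± 33.5 CPM. In this list 3 genes were higher and 2 lower in replicate 2 by the exact binomial test, 3 did not pass, and the median log2 ratio was 0.03. The shares over all tested genes were 20% higher and 20.3% lower. A list from blood progenitors and immune cells had 22 of 23 genes detected and summed to 110325 ± 323 CPM. It was led by Mir126a, the endothelial miRNA named above, with 33005 ± 1928 CPM, and Mir130a with 31887 ± 1240 CPM. Next were Mir652 with 8681 ± 631 CPM, Mir21a with 7503 ± 856 CPM and Mir342 with 5474 ± 464 CPM. In this second list 6 of 22 tested genes were higher and 10 lower in replicate 2, 6 did not pass, against the same shares over all tested genes, and the median was 0.00. Mir10a, from the Hoxb cluster, was the 1 gene of these lists that passed with at least a 2-fold difference, with 156 CPM (replicate 1) and 347 CPM (replicate 2), opposite in direction to Mir451a.

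The low blood cell levels can be set beside markers of other organs. The muscle list summed to 106 ± 35.9 CPM and the liver list to 153 ± 5.96 CPM. Both were below the leukocyte sum and the erythroid sum in each library. The erythroid part of this rests on Mir451a. Without Mir451a the erythroid sum was 61.3 and 62.0 CPM, below the muscle list (80.6 and 131 CPM) and the liver list (158 and 149 CPM). In the muscle list 4 of 8 genes were detected, and 2 of them passed the exact binomial test with over 2-fold differences in opposite directions. A pass with at least a 2-fold difference held for 4.01% of all tested genes. Mir208b, a cardiac miRNA, had 38.2 and 100.4 CPM, and Mir206, a skeletal muscle miRNA, had 26.3 and 10.5 CPM. Of the other genes in that list 2 had no count, and reads shared between identical copies are outside the counts. Mir122, the hepatocyte miRNA, had 36 and 54 counts.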

How the data were processed

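Per library, the authors deposited 1 table of raw read counts over miRNA genes, on mm10 with GENCODE M4, per the text files deposited with them; the aligner is not given in the sources used here. Each has 4 summary lines, then counts on both strands, on the gene's strand and on the opposite strand. The gene-strand count was the main measure, with CPM over all 1973 gene rows, leaving out the summary lines (58.2% and 59.3% of reads, including unmapped, multi-mapping and unannotated reads). Symbols, positions and hairpin RNAs came from GENCODE M21 by identifiers without version (1894 matched; each of the 79 unmatched had 13 counts or fewer over both strands and libraries), mature sequences from RefSeq.

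Genes were tested with an exact binomial test in scipy 1.17.1, adjusted across all 449 tested genes at 0.05; edgeR 4.0.16 gave TMM factors only, as 1 group leaves no contrast to fit. Hairpins were folded with RNAfold 2.7.2. The test was checked on simulated data. Named genes are the 9 members, genes on their opposite strand, the 5 highest of each further list and any past 2-fold, Mir335 as a scale, and the 3 genes nearest Mir451a in ratio; tissue markers named lie outside this rule. Members, lists and alternatives were chosen with earlier results of these data known, and 1 alternative, the test of Mir142 in the unstranded counts, was added after the counts were seen.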

Additional observations from a re-analysis of the deposited data

Results flagged for a closer look

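Reads outside the counted strand were above 3 counts at 2 members. At Mir142b there were 1998 opposite-strand reads in replicate 1 and 2448 in replicate 2, beside 0 on its own strand. At Mir486 there were 8 in replicate 1 and 5 in replicate 2, beside 57 and 88 on its own strand. No group had enough samples for a search for outlying libraries.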

How the results depend on the processing

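Under 7 other choices of strand, library size, filter or test, 1 member was called each time, and it was Mir451a. Its log2 ratio ranged from -1.33 to -1.30 over these and 2 other pseudocounts, with adjusted exact p from 1.03e-67 to 2.54e-65. Of 62 log2 ratios of members under alternatives, 62 kept their direction and their side of the threshold. Over all tested genes the calls ranged from 22.9% without a filter on low counts to 52.7% with at least 50 counts. Sums depended on what was counted. Scaled to all reads in place of gene reads, the erythroid sum was 129 CPM and the leukocyte sum 189 CPM. Without Mir451a the erythroid sum was 61.7 CPM. With the unstranded count the leukocyte sum was 1128 CPM and the erythroid to leukocyte ratio 0.272, and with the opposite-strand reads of Mir142b they were 1156 CPM and 0.270. With 1 library at a time, the erythroid sum ranged from 205 to 420 CPM, the leukocyte sum from 454 to 462 CPM, the erythroid to leukocyte ratio from 0.451 to 0.910 and the ratio of Mir451a to Mir144 from 3.87 to 8.67. TMM and median-of-ratios library sizes moved no member's mean level beyond its SD. No paired analysis was possible because there is 1 group. Depth limits Mir146b, Mir142b and Mir150, which had at most 13 counts in a library.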
